A study of Saccharomyces cerevisiae with 5 samples.

Results

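Chromosome VII of budding yeast was examined more than 30 kb from either end, in 5 fitted replication profiles. The chromosome is 1090947 bp long in the deposited files and was divided at 509 kb. It was chosen by its fitted times: 2 samples grown in galactose, E and G, differ in time on the left of that boundary, so every value that sets E against G is given as a description with no test. Each sample has 2061 positions there at steps of 500 bp, of 23837 to 23858 in its whole profile, with 958 on the left and 1103 on the right. They hold 27 of the 406 initiation sites found when the sites of all samples were joined, 14 on the left and 13 on the right, and the boundary falls beside the site at 508960. The fits of E and G hold 185 and 251 fork segments over this stretch, against 249 for glucose F and 379 and 408 for the wild-type samples A and B. Positions are those of the files, whose genome build is not given in the sources used here.

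Replication of a yeast chromosome starts at many origins, each used in only a portion of cell cycles, and forks leave an origin in both directions until they meet a fork from a neighbour. Okazaki fragments are the pieces in which the lagging strand is made, and they come from opposite strands for rightward and leftward forks, so their strand shows which way a locus was copied. A rise in the rightward share along the chromosome marks initiation and a fall marks termination. An origin that fires early and often copies more of its surroundings, and a stretch without origins is copied late by forks from its flanks.

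Galactose E and G and glucose F are strain yIW160-SSDDCS, in which galactose induces Sld2, Sld3, Dbf4, Dpb11, Cdc45 and Sld7, and wild type A and B are strain yIW160. Dbf4 activates the Cdc7 kinase at loaded helicases, Sld3 with Sld7 recruits Cdc45 to them, and Sld2 with Dpb11 helps the GINS subunits to join. All cultures were asynchronous and grown at 30 degrees, with 4 hours in 2% galactose or 2% glucose. Then 2.5 hours of doxycycline (40 micrograms per ml) repressed DNA ligase I, which leaves the fragments unjoined. The medium of the wild-type samples is not among their labels. Galactose medium cannot be told apart from overexpression, nor strain from sequencing platform (Ion Torrent for yIW160-SSDDCS, Illumina for yIW160). The labels do not say whether the replicates (n = 2 for galactose and for wild type, n = 1 for glucose) were separate cultures, so p-values cover only the variation among these libraries. Read counts are not among the values used, so the depth is unknown.

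In galactose G the left side of chromosome VII was placed later, on average, than the right, which none of the other 4 profiles shows over the whole sides. Averaged over 96 windows of 5 kb on the left, the fitted replication time was 10.7 min in galactose E and 25.9 min in galactose G, against 9.90 min in glucose F and 12.9 and 12.5 min in the wild-type samples A and B. Over the 110 windows on the right it was 12.2 min in E and 14.4 min in G, against 13.9 min in F and 15.2 and 15.1 min in A and B. The left was thus 11.5 min later than the right in G. In the others the left was the earlier side, with left minus right at -1.49 min in E, -3.99 min in F, -2.34 min in A and -2.65 min in B. The first 150.9 kb right of the boundary, up to the site at 659894, average 18.4 min in E and 26.0 min in G, against 19.8 min in F and 14.6 and 15.1 min in A and B, so in G they are as late as the left. Against the positions beyond 659894 alone, the left was 15.9 min later in G and 0.886 min later in E, against -1.73 min in F and -2.53 and -2.65 min in A and B, so the sign for E turns with the stretch compared. E minus G averaged -15.2 min on the left with an SD of 0.925 min over windows and a range from -17.5 to -13.3 min, so the 2 left profiles run nearly parallel. On the right E minus G averaged -2.24 min with an SD of 4.49 min. At the boundary itself nothing changes, since E minus G is -14.7 min at the last position to its left and -14.7 min at the next to its right.

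**Figure D1:**
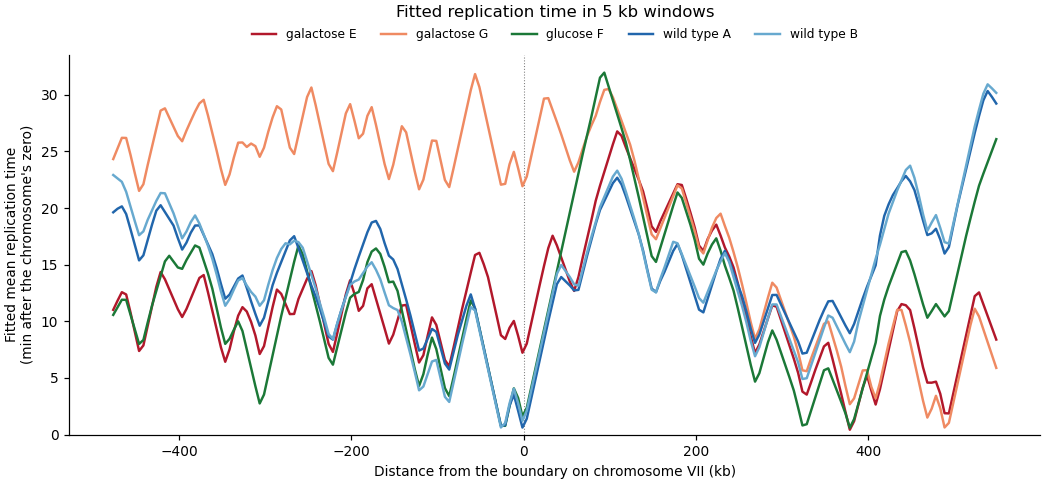
Fitted mean replication time in minutes after the chromosome's earliest position (y axis) in 5 kb windows along chromosome VII, by distance from the boundary in kb (x axis, dotted line at the boundary), for the 5 samples. The line of galactose G lies parallel to and above that of galactose E left of the boundary, with means of 25.9 and 10.7 min, and joins it about 150.9 kb to the right.

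These minutes count from a start that is set separately for each chromosome. The lowest deposited time is 0 on each of the 16 chromosomes in each of the 5 samples, so a time compares positions of 1 chromosome in 1 sample. On chromosome VII the 0 lies at 888132 in galactose E and at 999180 in galactose G, both right of the boundary. It lies at 485459 in glucose F and at 484958 and 484458 in the wild-type samples A and B, all left of it and beside the strong site at 485115. A difference within a chromosome is free of this choice. E minus G is -13.0 min for left minus right. With each sample's chromosome VII centred on its own median, an alternative added after the data were seen, E minus G is -2.58 min on the left and 10.4 min on the right. Galactose G is the sample that stands apart in left minus right, and since only such differences carry over between samples, the times do not place the shift on 1 side of it.

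Fitted time and fork direction are not independent measures here. At a fork speed of 2900 bp per min, a constant of the authors' fit, the running sum of rightward minus leftward share along the chromosome gives back the deposited time up to a constant. The largest gap between the 2 curves at any position was 0.472 min in E and 0.228 min in G, 1.08 min in F, and 2.19 and 0.736 min in A and B. An offset between the sides can therefore be placed where the rightward shares of E and G differ.

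It arises between the site at 508960 and the next site listed in all 5 samples, at 659894. From the left margin to the right one, E minus G changes by 15.9 min, and 15.4 min of that falls within this 150.9 kb. From 508960 to 568376 E minus G changes by 4.32 min, and from 568376 to 659894 by 11.1 min. These intervals are bounded by the margins and by sites with a probability of at least 0.3 in both galactose samples. In the other 21 such intervals E minus G changes by between -2.47 and 3.87 min from end to end, and these changes largely cancel. The change to 659894 is upward, since forks of E are fitted as rightward over more of the gap, 91.6 kb in E against 69.0 kb in G. Glucose F has 95.5 kb copied rightward there, and the wild-type samples A and B have 92.7 and 92.0 kb, so galactose G is the sample that stands apart.

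**Figure D2:**
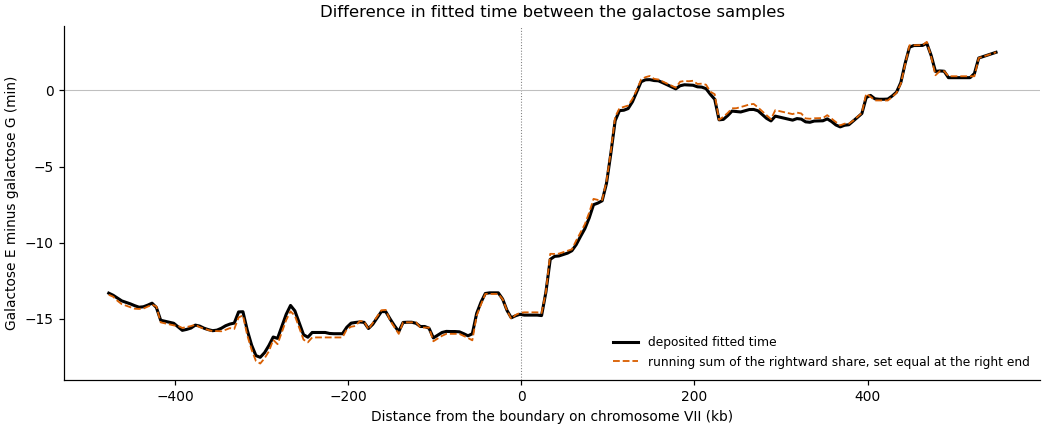
Galactose E minus galactose G in fitted time (min, y axis) in 5 kb windows by distance from the boundary (kb, x axis), as deposited (solid) and rebuilt from the running sum of the rightward share (dashed, set equal at the right end). The curve is flat on the left around its mean of -15.2 min, climbs between 0 and 150.9 kb and stays between -2.49 and 3.34 min beyond.

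Within that gap E and G part at 2 places. In the window from 535001 to 540000 the rightward share was 0.959 in E and 0.195 in G, against 1.00 in glucose F and 0.990 and 1.00 in the wild-type samples A and B. In the window from 610001 to 615000 it was 0.854 in E and 0.232 in G, against 0.145 in F and 0.730 and 0.760 in A and B. At the first place G alone is low, and at the second G lies near glucose and E near wild type. The windows on either side of 610001 show the same order, with E minus G of 0.542 at 605001 and 0.483 at 615001. These are the 4 largest differences in share between E and G on the chromosome, and the next is -0.380 at 190001.

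The places where forks meet in the gap differ likewise. Meetings with a probability of at least 0.2 are given, and weaker ones add 0.396 in E and 0.608 in G, against 0.139 in F and 0.407 in each of A and B. Galactose E has meetings at 542188 with a probability of 0.758 and at 618295 with 0.578. Galactose G has them at 534666 with 0.805 and at 604224 with 0.524, so both lie further left than in E. Glucose F has 1 such meeting, at 600098 with 0.855, and lists no site between 508960 and 659894. Wild type A has meetings at 550210 (0.581), 595010 (0.258) and 616451 (0.415). Wild type B has them at 550678 (0.656), 595318 (0.240) and 616321 (0.458), each within 0.5 kb of its partner in A. The latest position of the gap lies 109.6 kb from its left site in E and 95.6 kb in G, against 91.0 kb in F and 107.6 kb in both A and B. It is 20.3 min later than the left site in E and 9.38 min later in G, against 31.4 min in F and 22.7 min in both A and B.

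The step in start time between the flanking sites differs accordingly. The site at 659894 has a start time that exceeds that of 508960 by 5.31 min in galactose E, by -9.63 min in galactose G (the reverse order), by 10.7 min in glucose F and by 7.31 and 7.63 min in the wild-type samples A and B. This is the only one of 16 steps between neighbouring sites listed in all 5 samples at which E minus G is over 3 min in size, at 14.9 min. At the other 15 it runs from -2.76 to 1.66 min, and A minus B runs from -3.36 to 7.63 min over all 16.

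On the left, the start times of the 14 sites shared by E and G differ by a nearly constant amount, though not in the same order, since the earliest is 421291 in E and 64146 in G. E minus G in start time runs from -16.9 to -13.7 min over them, with a mean of -15.4 min and an SD of 0.909 min over sites. They lie within 5.08 min of each other in E and within 4.73 min in G, against 11.3 min for the 11 sites of glucose F and 13.7 and 13.0 min for the 11 and 13 sites of wild type A and B. Left origins thus start closer together in both galactose fits than in the other 3. On the right the spans are 14.4 min over 10 sites in E and 21.9 min over 11 in G, against 16.8 min in F (8 sites) and 15.2 and 17.1 min in A (8) and B (10), and there the galactose spans do not lie on 1 side of the others.

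Far to the right another step is short in both galactose samples. The start time of 977886 exceeds that of 888664 by 1.40 min in E and by -0.265 min in G, against 11.5 min in glucose F and 13.1 and 15.6 min in the wild-type samples A and B. Between these sites lies 917203, which was listed in galactose alone. On the left, the start time of 352742 exceeds that of 286159 by -0.662 min in E and by -0.551 min in G, against 7.08 min in F and 8.67 and 1.03 min in A and B. The wild-type samples themselves are 7.63 min apart at this step.

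Some origins of chromosome VII were used more in galactose than in the other samples. In limma, fitted over all 406 sites of the genome with Benjamini-Hochberg adjustment at 0.05, 4 of 27 sites were higher in galactose than in glucose and 0 lower, while 24.1% of all sites were higher and 4.93% lower. Against wild type 9 were higher and 1 lower, against 35.5% and 4.19% of all sites. Calls in both contrasts include sites listed in 1 group alone, where the other samples count as 0. At an unadjusted p under 0.05 the numbers of sites, in either direction, are 8 (29.6%, against 39.9% of all sites) and 14 (51.9%, against 51.5%). Without galactose E or without galactose G the 10 calls against wild type become 5. Of the 15 calls at single sites in the 3 contrasts, 4 kept their direction and the threshold under every alternative. These were the calls of 568376 and 999958 in galactose against glucose and against wild type. At 568376 F, A and B count as 0 because they list no site there. Most of the alternatives leave those values unchanged, so keeping the threshold at 568376 is no separate support. The size of the gain at 568376 over wild type depends on the joining distance. With sites joined within 5000 bp, 568376 becomes 1 site with a neighbour listed in wild type. The gain then falls from 0.802 to 0.171 (limma adjusted p = 0.0345). Both galactose samples exceeded the other 3 at 15 of 27 sites, 10 of 14 on the left and 5 of 13 on the right, close to the 51.2% of all sites that do so. They were below all 3 at 0 sites, against 2.71% of all sites. The median difference in probability between galactose and glucose was 0.148 on the left and 0.0367 on the right, against 0.116 over all sites, and between galactose and wild type 0.212 and 0.0664, against 0.183.

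**Figure D3:**
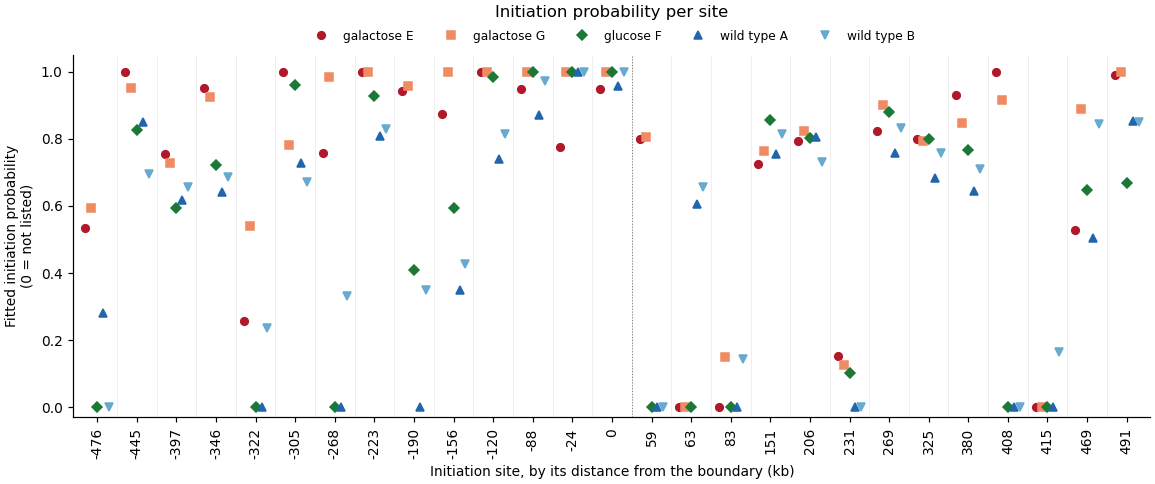
Fitted initiation probability (y axis, 0 where a sample lists no site) of the 27 interior sites of chromosome VII, in chromosomal order and named by their distance from the boundary in kb (x axis), for the 5 samples. The sites 59 and 408 kb to the right of the boundary are listed in galactose E and G alone.

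The 3 left sites with the highest mean probability over the 5 samples, at 421291, 485115 and 508960, are also the nearest to the boundary. The site at 508960 had a probability of 0.949 in E and 1.00 in G, against 1.00 in F and 0.957 and 1.00 in A and B. That at 485115 had 0.776 in E and 1.00 in G, against 1.00 in F, A and B. E is the lowest sample at 485115, next to which the other 3 profiles have their time 0. That at 421291 had 0.948 in E and 1.00 in G, against 1.00 in F and 0.872 and 0.972 in A and B, with the groups overlapping.

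Further left, moderately used origins came close to full use in galactose. The site at 162887 had 0.951 in E and 0.924 in G, against 0.723 in F and 0.641 and 0.687 in A and B. It was the 1 left site that rose against glucose, by 0.215 ± 0.0353 (SE; limma adjusted p = 0.0364), and it also rose against wild type, by 0.274 (adjusted p = 0.0174). Its 2 galactose values lie above all others, with no overlap. Leaving out any of E, G, A or B loses both calls (limma adjusted p from 0.0980 to 0.163 against glucose and from 0.0625 to 0.116 against wild type).

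The other 4 called left sites rose against wild type and were not called against glucose. At 352742 the probability was 0.873 in E and 1.00 in G, against 0.594 in F and 0.351 and 0.427 in A and B, a gain of 0.547 over wild type (limma adjusted p = 0.0180). At 319429 it was 0.942 in E and 0.956 in G, against 0.410 in F and 0 and 0.349 in A and B, a gain of 0.775 (adjusted p = 0.0411). Glucose lies between the groups at both sites. The call at 352742 is lost when any of E, G, A or B is left out (adjusted p from 0.0791 to 0.140) and on the arcsine square root scale, and that at 319429 without E or without G (up to 0.264), on that scale, and with sites joined within 1000 bp. At 286159 it was 1.00 in E and G, against 0.928 in F and 0.807 and 0.829 in A and B (limma adjusted p = 0.0180). At 388844 it was 1.00 in E and G, against 0.984 in F and 0.740 and 0.816 in A and B (limma adjusted p = 0.0321), so glucose was close to galactose there. Both of these calls are lost without E or without G, with adjusted p up to 0.0940 at 286159 and 0.212 at 388844.

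Other left sites were weak or not listed outside galactose. At 240936 the probability was 0.759 in E and 0.985 in G, against 0 in F and A and 0.333 in B, and it missed the threshold against glucose (adjusted p = 0.0754) and wild type (adjusted p = 0.0609). At 187304 it was 0.258 in E and 0.539 in G, against 0 in F and A and 0.236 in B. At 32794 it was 0.535 in E and 0.595 in G, against 0 in F, 0.280 in A and 0 in B. Galactose is highest at all 3, by the least at 187304, where E and B nearly meet. Of the remaining left sites, 64146 and 112330 had probabilities of 0.726 to 1.00 in galactose and of 0.593 to 0.850 in the other samples. The site at 203955 had 1.00 in E and 0.780 in G, against 0.960 in F and 0.728 and 0.670 in A and B.

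On the right, 2 sites were listed in galactose alone. At 917203 the probability was 1.00 in E and 0.915 in G, against 0 in F, A and B, a gain of 0.958 ± 0.0487 over glucose (SE; limma adjusted p = 0.00626). This call is lost without A or without B (adjusted p = 0.0705). Wild type B lists a weak site at 923980, with 0.166, and no other sample does. At 568376, inside the gap where the sides separate, it was 0.799 in E and 0.805 in G, against 0 in F, A and B (gain of 0.802 over glucose, limma adjusted p = 0.00377). The sites at 917203 and 568376 were tested only because galactose samples list them, and a 0 stands for a sample that lists none. The p-values at both sites therefore restate that listing in part and are no separate support.

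The wild-type samples list a neighbouring site at 571666 instead, with 0.607 in A and 0.656 in B, against 0 in E, G and F. Glucose thus lists no site at either position. As separate sites 571666 was lower than in wild type both in galactose (difference -0.631, limma adjusted p = 0.00480) and in glucose (difference -0.631, limma adjusted p = 0.0245). Only wild type lists 571666, so these p-values too restate the listing in part. If sites up to 5000 bp apart are joined, the pair becomes 1 site that was higher in galactose than in wild type, by 0.171 (limma adjusted p = 0.0345). Another site of the gap, at 592180, had 0 in E and 0.149 in G, against 0 in F and A and 0.143 in B.

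At 999958, the right site with the highest mean over the 5 samples, the probability was 0.990 in E and 1.00 in G, against 0.668 in F and 0.853 and 0.851 in A and B. It was higher in galactose than in glucose by 0.327 ± 0.0230 (SE; limma adjusted p = 0.00990) and than in wild type by 0.143 (adjusted p = 0.0215), and glucose is the lowest sample. The weak site at 740025, with 0.154 in E and 0.126 in G against 0.103 in F and 0 in A and B, was higher in galactose than in wild type (limma adjusted p = 0.0293), a call lost without A or without B (up to 0.126). At the other right sites no contrast passed. At 715216 the probability was 0.792 in E and 0.824 in G, against 0.802 in F and 0.804 and 0.731 in A and B, and at 777926 it was 0.824 in E and 0.899 in G, against 0.881 in F and 0.759 and 0.832 in A and B. At 888664 it was 0.929 in E and 0.846 in G, against 0.766 in F and 0.645 and 0.709 in A and B (adjusted p = 0.0555 against wild type by limma). Galactose lies above the others there without passing the threshold. The sites at 659894 and 834320 ran from 0.724 to 0.799 in galactose and from 0.683 to 0.855 in the others. At 977886 replicates differed by as much as groups do elsewhere, with 0.529 in E and 0.887 in G, against 0.646 in F and 0.506 and 0.844 in A and B.

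Between glucose and wild type few sites passed. In limma 0 of 27 sites were higher and 1 lower in glucose, the site at 571666, while 1.23% of all sites were higher and 0.493% lower. At an unadjusted p under 0.05 there are 5 sites (18.5%, against 22.7% of all sites). The 1 call goes to 0 when galactose E or galactose G is left out, and without wild type A or without wild type B there are 5 calls.

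Summed over its sites, a side of the chromosome gives the expected number of initiations each time it is copied. On the left the sum was 11.7 in E and 12.5 in G, against 9.02 in F and 7.84 and 8.67 in A and B. On the right it was 7.54 in E and 8.01 in G, against 5.52 in F and 5.61 and 6.50 in A and B. Both galactose samples exceeded the other 3 on each side, and the galactose mean was 1.34 times glucose and 1.47 times the wild-type mean on the left, and 1.41 and 1.28 times them on the right. A two-sided exact permutation test of galactose against the other 3 gave p = 0.1 on each side, the smallest that 2 samples against 3 allow. Adjusted over 14 such measures it was 0.175. The left held 40.8 kb per initiation in E and 38.5 kb in G, against 53.1 kb in F and 61.1 and 55.2 kb in A and B. On the right origins were sparser in every sample, with 73.2 kb in E and 68.9 kb in G, against 99.98 kb in F and 98.4 and 84.9 kb in A and B. The difference between E and G, 0.712 initiations on the left, is in the same range as that between A and B, 0.827.

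**Figure D4:**
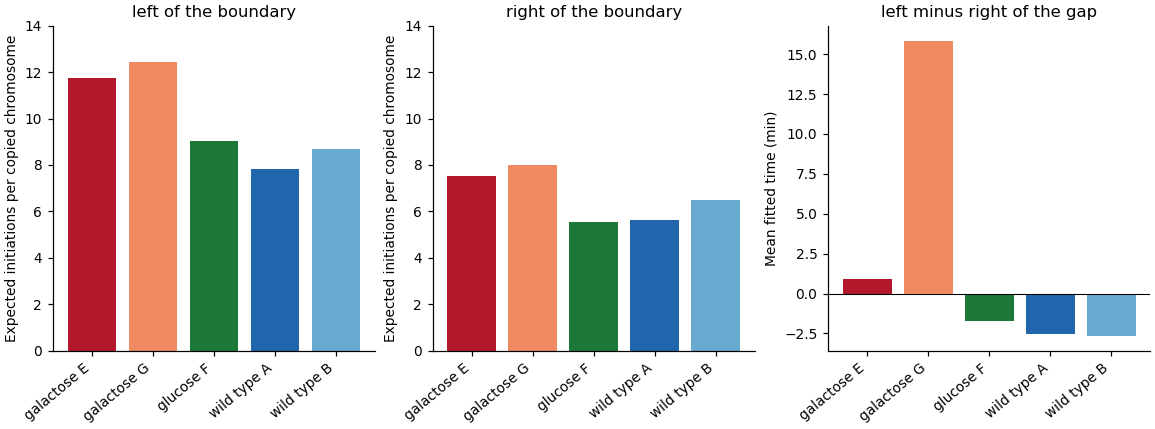
Expected initiations per copied chromosome (y axis, summed site probability) left and right of the boundary, and mean fitted time of the left minus that of the positions right of 659894 (min), 1 bar per sample. Galactose E and G stand above the other 3 in both sums, and galactose G stands apart in time with 15.9 min, against 0.886 min in E.

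Outside the gap, fork direction was about as alike between the 2 galactose samples as between the 2 wild-type samples. Over windows, Pearson's r of the rightward share between E and G was 0.951 left of the boundary, 0.855 in the 30 windows of the gap and 0.958 in the 80 windows to its right. Between A and B it was 0.934, 0.998 and 0.976. Neighbouring windows share forks, so these are descriptions. The shares of E and G lay within 0.1 of each other in 69 of 96 left windows, 16 of 30 windows of the gap and 70 of 80 to its right, and those of A and B in 70, 30 and 69. Left of the boundary the mean share was 0.488 in E and 0.491 in G, against 0.473 in F and 0.439 and 0.431 in A and B.

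**Figure D5:**
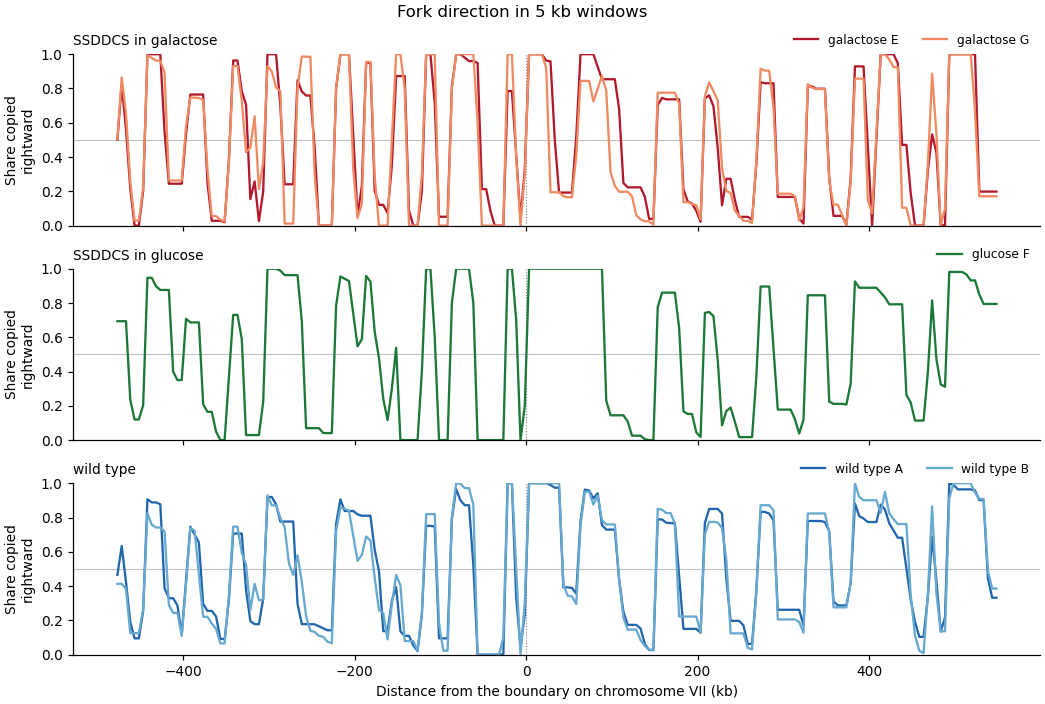
Share copied by rightward forks (y axis, 0 to 1) in 5 kb windows along chromosome VII by distance from the boundary (kb, x axis), for galactose E and G (top), glucose F (middle) and wild type A and B (bottom). The 2 galactose lines overlap over most of the chromosome and part most between 0 and 150.9 kb, and glucose stays at 1.00 until its forks meet 91.1 kb into that gap.

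In limma over 2386 windows of the genome, 18 of 206 windows (3 left, 15 right) differed in rightward share between galactose and glucose, or 8.74%, while 12.2% of all windows did. Between galactose and wild type 27 did (13 left, 14 right), or 13.1%, while 19.2% of all windows did. Between glucose and wild type 0 of 206 and 0% of all windows passed, with 38 of the 206 (18.4%) and 18.1% of all windows at an unadjusted p under 0.05. Share and time are not independent, and the time offset of E and G chose this chromosome. Part of the spread in these fits, above all in the gap, thus comes from that choice. The counts and the run of windows in the gap are given as descriptions. All calls between galactose and either other group need both galactose samples, since leaving out E or G gives 0 called windows on chromosome VII and 0 in the genome.

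The galactose calls against glucose include 3 runs of adjacent windows, each copied more leftward in galactose. From 545001 to 570000, left of the galactose site at 568376, the rightward share was 0.257 in E and 0.221 in G, against 1.00 in F and 0.501 and 0.478 in A and B (mean difference from glucose -0.761, limma adjusted p from 0.0144 to 0.0456). This run lies in the gap, so its p-values are part of the description and no separate support. Glucose is at the upper limit and wild type lies between in the means of this run. In the last window, from 565001, wild type is lower than galactose, with 0.357 in A and 0.295 in B against 0.516 in E and 0.407 in G. From 875001 to 885000 it was 0.0312 in E and 0.0306 in G, against 0.210 in F and 0.287 and 0.276 in A and B (mean difference from glucose -0.179, limma adjusted p from 0.0282 to 0.0391). From 1035001 to 1060000, at the right margin, it was 0.198 in E and 0.171 in G, against 0.805 in F and 0.582 and 0.616 in A and B (mean difference from glucose -0.621, limma adjusted p from 0.0170 to 0.0195). In the mean of each run E and G differ by less than 0.04, and the means of the other samples are all higher.

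Some single windows called against glucose lie near origins used more in galactose. In the window from 365001 the share was 0.873 in E and 0.800 in G, against 0 in F and 0.109 and 0.0790 in A and B, to the right of the site at 352742 that was used more in galactose. In the window from 910001, left of the site at 917203, it was 0 in E and 0.0725 in G, against 0.889 in F and 0.774 and 0.901 in A and B. Forks through these windows were thus mostly rightward in galactose at the first and leftward at the second, and the reverse in the other samples. Other single windows called against glucose are not of this kind, since glucose alone stands apart in them. In the window from 90001 the share was 0.245 in E and 0.264 in G, against 0.876 in F and 0.329 and 0.290 in A and B. In that from 600001 it was 0.854 in E and 0.787 in G, against 0.230 in F and 0.730 and 0.760 in A and B.

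In both galactose samples a larger share of termination lay in strong meeting points. Meetings with a probability of at least 0.5 held 84.4% of all termination on the left in E and 82.0% in G, against 65.9% in F and 50.0% and 34.4% in A and B. On the right they held 80.0% in E and 82.9% in G, against 60.6% in F and 45.0% and 60.3% in A and B. The left had 12 such meetings in E and 11 in G, against 7 in F and 5 and 3 in A and B, and galactose exceeds the others on both sides without overlap. The exact permutation p was 0.2 on the left and 0.1, the smallest possible, on the right, over differences of group means. Adjusted over the 14 measures, the permutation p was 0.233 on the left and 0.175 on the right.

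On chromosome VII 10 intervals are bounded by the same sites in all 5 samples, with the meeting point of each set at a rightward share of 50%. Against glucose 1 of 10 differed in limma over the 95 such intervals of the genome, while 23.2% of all did. Against wild type 3 of 10 differed, while 41.1% of all did. Without galactose E or without galactose G the 1 call against glucose goes to 0, as do all of the genome.

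The 1 interval called against both groups is that from 112330 to 162887, 50.6 kb long. Forks met 24.2 kb from its left site in E and 24.7 kb in G, against 18.1 kb in F and 18.2 and 15.2 kb in A and B, further right by 6.32 ± 1.64 kb than in glucose (SE; limma adjusted p = 0.0485) and by 7.74 kb than in wild type (adjusted p = 0.0111). Its right-hand site, 162887, is the left site that rose against glucose, and the meeting point lies nearer to it in galactose. The left-hand site, 112330, had 0.755 in E and 0.726 in G, against 0.593 in F and 0.619 and 0.656 in A and B. The start time of 162887 exceeds that of 112330 by -0.661 min in E and -0.622 min in G. In F it does so by -4.73 min, and in A and B by -4.79 and -6.78 min. A link between any of these values and the shift was not tested. Between 421291 and 485115 forks met at 34.0 kb in E and 31.9 kb in G, against 27.9 kb in F and 26.9 and 28.4 kb in A and B, further right than in wild type by 5.30 kb (limma adjusted p = 0.0216).

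Between 715216 and 777926 forks met at 17.5 kb in E and 21.5 kb in G, against 17.5 kb in F and 26.6 and 28.0 kb in A and B, further left than in wild type (difference -7.81 kb, limma adjusted p = 0.0170). Glucose is at the value of E there. The weak site at 740025 lies inside this interval, with 0.154 in E, 0.126 in G and 0.103 in F, against 0 in A and B. Between 64146 and 112330 they met at 23.0 kb in E and 25.5 kb in G, against 31.5 kb in F and 21.5 and 26.4 kb in A and B, and glucose is the highest sample (adjusted p = 0.0800). Between 977886 and 999958 they met at 10.8 kb in E and 10.0 kb in G, against 8.61 kb in F and 9.47 and 8.54 kb in A and B, and the difference from glucose was 1.80 ± 1.27 kb (SE; limma adjusted p = 0.383).

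Fitted time gives no usable test between glucose and wild type here. The limma fit, in which 0 of 206 windows passed while 3.77% of all windows did, takes part of its spread from E and G, whose offset in time chose this chromosome, and its minutes depend on where each sample's 0 lies. Nothing is read from that count. The differences that are free of the 0, such as left minus right and the steps between sites, are given above.

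Among the 16 chromosomes, VII has the largest spread of E minus G over its interior windows, with an SD of 7.30 min, while the other 15 run from 0.704 to 6.68 min, highest on XV. Its range of 20.6 min ranks 3 from the highest, and the highest is 23.9 min on XVI. The spread of A minus B on VII, 1.48 min, is low among chromosomes, where the other 15 run from 1.44 to 8.70 min. The spread of E minus G does not depend on where each chromosome's 0 lies, and VII was chosen for it, so the rank is a description. Pearson's r of the rightward share between E and G on VII, 0.931, lies within the 0.869 to 0.967 of the other chromosomes.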

How the data were processed

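The authors fitted fork paths to Okazaki fragment counts of each sample and deposited the fits, per the labels, as line segments with times in minutes and a probability as a fraction from 0 to 1, and as a weighted mean time in minutes per position. Which aligner, build and fitting software they used is not given in the sources used here. Fragment counts were not analysed here. No genome of the files' build was used, so genes and sequences are not given.

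An initiation site needed paired rightward and leftward segments that begin at 1 point, at a probability of 0.1 or more. Sites up to 2500 bp apart in different samples were treated as 1 site, with 0 for a sample that lists none. The rightward share is the fraction of path probability in rightward segments. Share and time were averaged in 5 kb windows with at least 50% of their positions, and flanking sites of matched intervals had a probability of at least 0.3.

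All sites, windows and intervals of the genome were fitted with limma 3.58.1 (lmFit and eBayes, R 4.3.3) over 3 groups and 5 samples, with 2 residual degrees of freedom, two-sided. The variance of the single glucose sample was taken to equal that of the replicated groups. Permutation tests enumerated all assignments. Tables and plots were made in Python 3.11.15 (scipy 1.17.1, matplotlib 3.10.9, pandas 2.3.3, numpy 2.4.6).

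The chromosome, the measures and the rule for named items were chosen with earlier results of these data known. The rule names sites past the threshold, the 3 strongest and the 3 nearest to the boundary on each side, sites listed in galactose alone or missing from it alone, runs of at least 2 called windows, and the 5 intervals with the largest termination shift. The other sites are named because all are members, and single windows were picked after their values were seen. Alternatives changed the joining distance, the least probability, the scale, the window, the time 0, the margin, the boundary and the samples.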

Additional observations from a re-analysis of the deposited data

How the results depend on the processing

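For rightward share, window size changed the number of windows tested on chromosome VII, 206 at 5 kb, 515 at 2 kb and 103 at 10 kb. Between galactose and glucose 52 passed at 2 kb (10.1%) and 15 at 10 kb (14.6%), against 8.74% at 5 kb. Between galactose and wild type 76 passed at 2 kb (14.8%) and 17 at 10 kb (16.5%), against 13.1%. For site use between glucose and wild type, joining sites within 5000 bp gave 0 calls and the arcsine square root scale gave 2. Joining within 5000 bp turned the galactose minus wild type difference at 571666 to 0.171. With flanking sites of at least 0.5, 3 intervals passed for termination between galactose and glucose. Centring each chromosome on its median, chosen after seeing the data, gave 1 window for glucose minus wild type in fitted time, from which nothing is read, and gave E minus G of -2.58 min on the left and 10.4 min on the right. Leaving out each replicate in turn gave 3 to 4 calls for sites between galactose and glucose, 5 to 7 between galactose and wild type and 0 to 5 between glucose and wild type. It gave 0 to 16 windows for rightward share between galactose and glucose, 0 to 28 between galactose and wild type, and 0 to 1 interval for termination. The cause was not tested. For single named sites, 102 alternatives kept the direction and the side of the threshold, 31 kept the direction and lost the threshold, and 1 reversed, as given above. The summed probability stayed higher in galactose by 3.23 to 3.95 on the left and 1.66 to 2.21 on the right when a replicate was left out, where the exact test cannot fall below 0.25. No paired analysis was possible because the replicate numbers do not tie samples of different groups together. With 2 residual degrees of freedom and 1 glucose sample, a missed threshold does not show that groups are alike.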
